A study of Arabidopsis thaliana with 4 samples.

Results

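Glutathione transferases join the tripeptide glutathione to reactive or foreign compounds, and the conjugates are carried into the vacuole by ABCC transporters. The tau class (GSTU) and the phi class (GSTF) are the large classes of plants, known for the detoxification of herbicides, for responses to stress and hormones, and, for some phi members, for the synthesis or transport of defence compounds and pigments. The genes described here are the protein-coding genes of Arabidopsis thaliana whose symbol or synonym is GSTU or GSTF followed by digits. They number 42 of 27444 nuclear protein-coding genes, with 28 of the tau class and 13 of the phi class. The other member is GSTT1 (AT5G41210), a theta-class gene that carries GSTU12 among its synonyms and is kept apart from AT1G69920, the GSTU12 named below. A region of a mark was given to a member when it overlapped the gene body or the 500 bp on either side of it. The members were selected on their names, and the family itself was chosen with the tissue calls and the callus over leaf tag folds of its regions in view, so these calls and folds are given as a description of these libraries.

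Acetylation of histone H3 (H3ac) and trimethylation of its lysine 4 (H3K4me3) are marks found near the starts of genes in use. Both were profiled by chromatin immunoprecipitation sequencing in Col-0 plants, in mature rosette leaf and in callus, an unorganised dividing tissue. The callus came from leaf explants of seedlings aged 2 weeks that had spent 15 days on CIM, the medium on which callus formed, while the leaf libraries came from the parental leaves. Treatment is labelled none in both tissues, and no transgene or mutation is named. Each of the 4 libraries stands alone for its tissue and mark. No difference therefore has a replicate check, and tissue and time on the medium cannot be told apart. In tissue of many cell types, more cells with a mark and more mark per cell cannot be told apart either.

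Total depth per library is unknown. From the spacing of the tag values, the depth in callus was 1.369 times that in leaf for H3ac and 1.016 times for H3K4me3. Merging the tissues left 20264 regions of H3ac and 18564 of H3K4me3, each called in callus, in leaf or in both. The authors' differential lists hold regions whose callus tags were 2-fold or more above leaf and no others, so a region called in leaf alone has no fold here. For H3K4me3, 7 of 7 callus and root stem cell markers were listed as higher in callus, beside 8.01% of genes with a region. Of 6 leaf photosynthesis markers, 4 had all their H3K4me3 regions called in leaf alone, beside 2.9% of such genes. For H3ac, 5 of the 6 callus markers with a region were listed, beside 7.03% of genes with one. LBD18 was not listed, and LBD16 had no H3ac region. Only 3 of the 6 leaf markers had an H3ac region. CAB1 and LHCA2 were called in leaf alone, beside 3.26% of genes, and RBCS1A in both tissues.

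Of the 42 members, 31 had a region of either mark, 25 had regions of both, 4 had H3ac alone and 2 had H3K4me3 alone. An H3ac region lay at 29 members (69.0%, against 69.2% of all genes) and an H3K4me3 region at 27 (64.3%, against 73.3% of all genes). For H3ac the authors listed 6 of the 29 members as higher in callus, GSTU1, GSTU2, GSTU6, GSTU8, GSTU12 and GSTU16, which is 20.7% beside 7.03% of all genes with an H3ac region. For H3K4me3 they listed 5 of the 27, GSTU1, GSTU2, GSTU6, GSTU12 and GSTF14, which is 18.5% beside 8.01% of all genes with an H3K4me3 region. GSTU1, GSTU2, GSTU6 and GSTU12 were listed for both marks, 4 of the 25 members with both (16.0%) beside 3.18% of the 18525 genes with both. Among regions at or above the median score of their mark, 2 of 16 members were listed for H3ac, GSTU1 and GSTU2 through a region they share, beside 2.04% of all genes, and 0 of 10 for H3K4me3, beside 1.35%. An exact comparison of the tags of both libraries, adjusted by Bonferroni over all regions, left 0 of 29 for H3ac, beside 1.87% of all genes, and 5 of 27 for H3K4me3, beside 6.92%. It compares 1 library with 1 library on regions already listed by fold and says nothing of the tissues. At 4-fold or more there was 1 of 29 for H3ac (GSTU12), beside 1.78% of all genes, and 3 of 27 for H3K4me3, beside 3.16%, namely GSTU2, GSTU6 and, through the GSTU2 region 213 bp away, GSTU1. GSTU1 and GSTU2 lie side by side and share regions, so they are not separate measurements.

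Members with callus-alone regions and no others numbered 7 of 29 for H3ac, beside 5.37% of all genes, and 6 of 27 for H3K4me3, beside 3.99%. Members with leaf-alone regions and no others numbered 2 of 29 for H3ac, beside 3.26%, and 1 of 27 for H3K4me3, beside 2.9%. The deeper callus H3ac library moves with the callus-alone H3ac calls, and its part in them was not tested. By class, 6 of 20 tau members and 0 of 8 phi members with an H3ac region were listed, beside 7.03% of all genes, and no difference between the classes is read from these few genes. For H3K4me3 they were 4 of 18 tau members and 1 of 8 phi members, GSTF14, whose listed region lay outside its body.

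**Figure D1:**
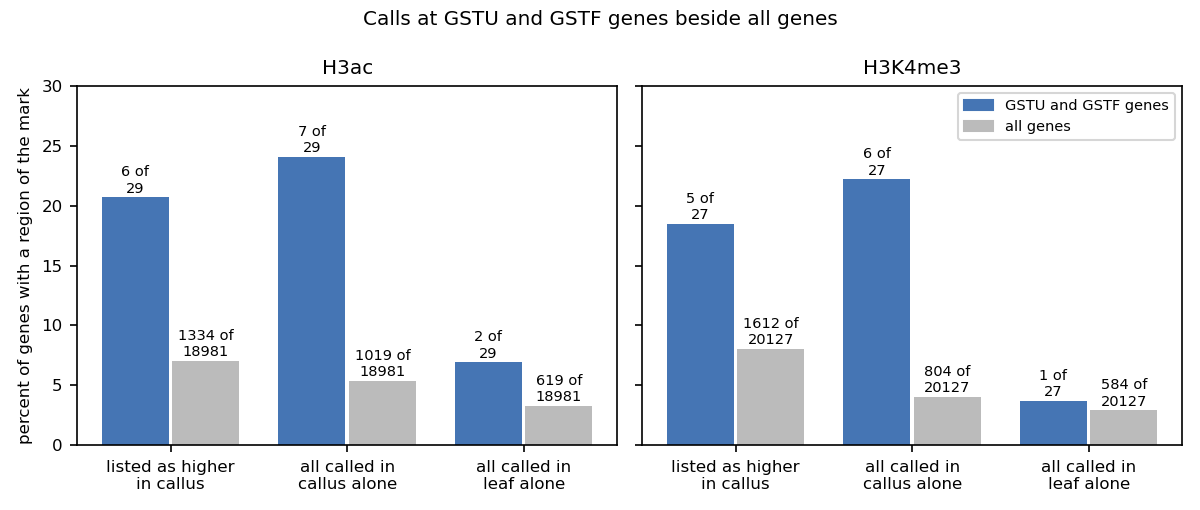
Bars give the percent of genes with a region of the mark (vertical axis, from 0) that were listed as higher in callus, had all regions called in callus alone, or had all regions called in leaf alone, for GSTU and GSTF genes (blue) and for all genes (grey), with the counts above. For H3ac 6 of 29 members were listed as higher in callus beside 7.03% of all genes, and for H3K4me3 5 of 27 beside 8.01%.

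**Figure D2:**
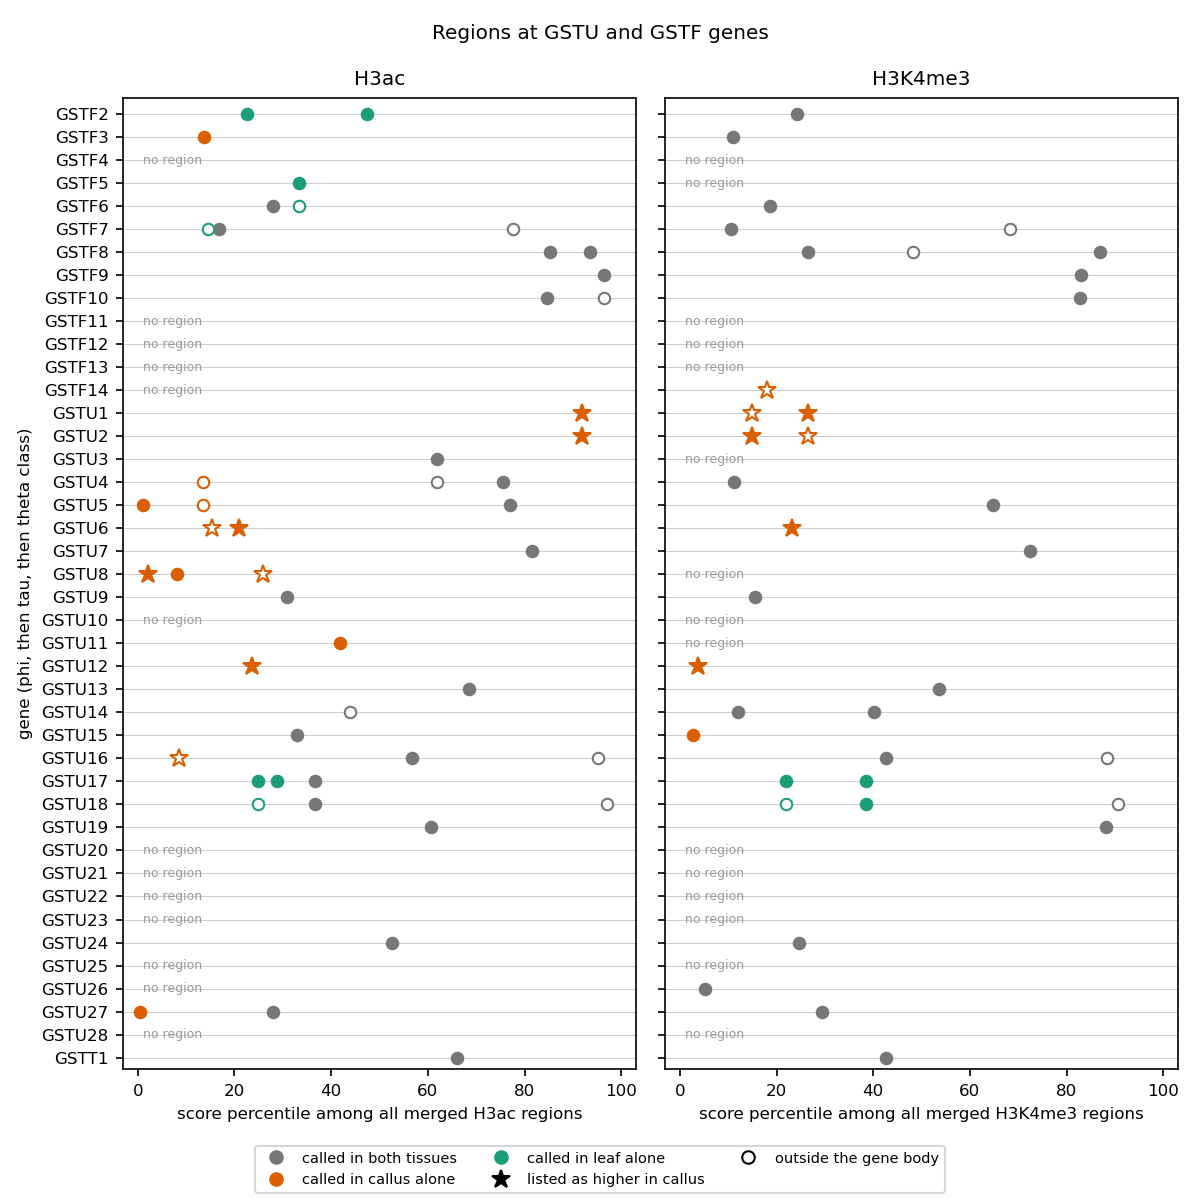
Each point is a region at a member (vertical axis), placed by the percentile of its score among all merged regions of that mark (horizontal axis), with colour for the tissue in which it was called, a star for regions listed as higher in callus and an open symbol for regions outside the gene body. The stars fall on GSTF14 and on tau members, and 11 members have no region of either mark.

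The largest run of neighbouring members was the tandem array of GSTU7, GSTU6, GSTU5, GSTU4, GSTU3, GSTU2 and GSTU1 on chromosome 2 (AT2G29420 to AT2G29490), 1 of 8 such runs. GSTU5, whose gene responds to auxin, belongs to this array. The 7 genes did not share 1 pattern. GSTU7, GSTU5 and GSTU4 each carried an H3ac and an H3K4me3 region in the body called in both tissues, with no listed region. GSTU6, GSTU2 and GSTU1 had all their regions of both marks called in callus alone, with at least 1 region of each mark listed as higher. GSTU3, between GSTU4 and GSTU2, had an H3ac region called in both tissues and no H3K4me3 region within 500 bp. The genes with callus-alone regions only were thus GSTU6 and, beyond GSTU5, GSTU4 and GSTU3, the neighbours GSTU2 and GSTU1. GSTU5 also had an unlisted callus-alone H3ac region in its body.

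In GSTU2 (AT2G29480) the H3K4me3 region at chromosome 2, 12630410 to 12631128 (TAIR10), had 100.9 scaled callus tags and 7.5 leaf tags in the authors' deposited table. That is 13.46-fold in the authors' deposited table, with an exact 95% interval from the tag numbers of 6.44 to 33.1, and it ranked 125 of 1359 listed H3K4me3 regions. The intervals here and below were computed from the tags and cover counting error only. A list made by size of fold favours high values, which they leave out of account. The region covered 64.0% of the GSTU2 body and also lay over AT2G29485, a gene annotated across GSTU2, so its tags cannot be given to 1 of these genes alone.

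In GSTU1 (AT2G29490) the H3K4me3 region at 12631549 to 12632512 had 161.0 scaled callus tags and 46.0 leaf tags in the authors' deposited table. The fold of 3.5 in the authors' deposited table had an interval of 2.51 to 4.97. In the 1 leaf library, the tags were higher at the GSTU1 region (46.0) than at the GSTU2 region (7.5). Both regions had many callus tags, and the difference between these 2 genes was not tested. For H3ac a single region from 12630271 to 12632484, 2213 bp long, lay over both genes and over AT2G29485. It had 34.7 scaled callus tags and 14.0 leaf tags, 2.48-fold, in the authors' deposited table (1.34 to 4.87). Tags were counted in a short stretch at the centre of each region, and here that stretch held 110 bp of GSTU1 and 18 bp of GSTU2, so the H3ac fold is read where these genes meet.

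GSTU6 (AT2G29440) had an H3K4me3 fold between those of GSTU2 and GSTU1. Its region at 12619902 to 12621082 covered 73.7% of the gene body and had 107.8 scaled callus tags and 11.5 leaf tags, 9.37-fold, in the authors' deposited table (5.1 to 19.0). Its H3ac region in the body, at 12619917 to 12620357, had 35.1 scaled callus and 14.5 leaf tags, 2.42-fold, in the authors' deposited table (1.32 to 4.7). A second H3ac region, 160 bp outside the body at 12621391 to 12621725, had 30.7 scaled callus and 13.0 leaf tags, 2.36-fold, in the authors' deposited table (1.24 to 4.79). Both marks were thus listed in the GSTU6 body. Their folds come from different libraries, tag numbers and counted stretches, so the size of change is not compared between the marks. The regions in the body also touched AT2G29430, a gene annotated across 1 end of GSTU6, so these calls are not of GSTU6 alone.

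**Figure D3:**
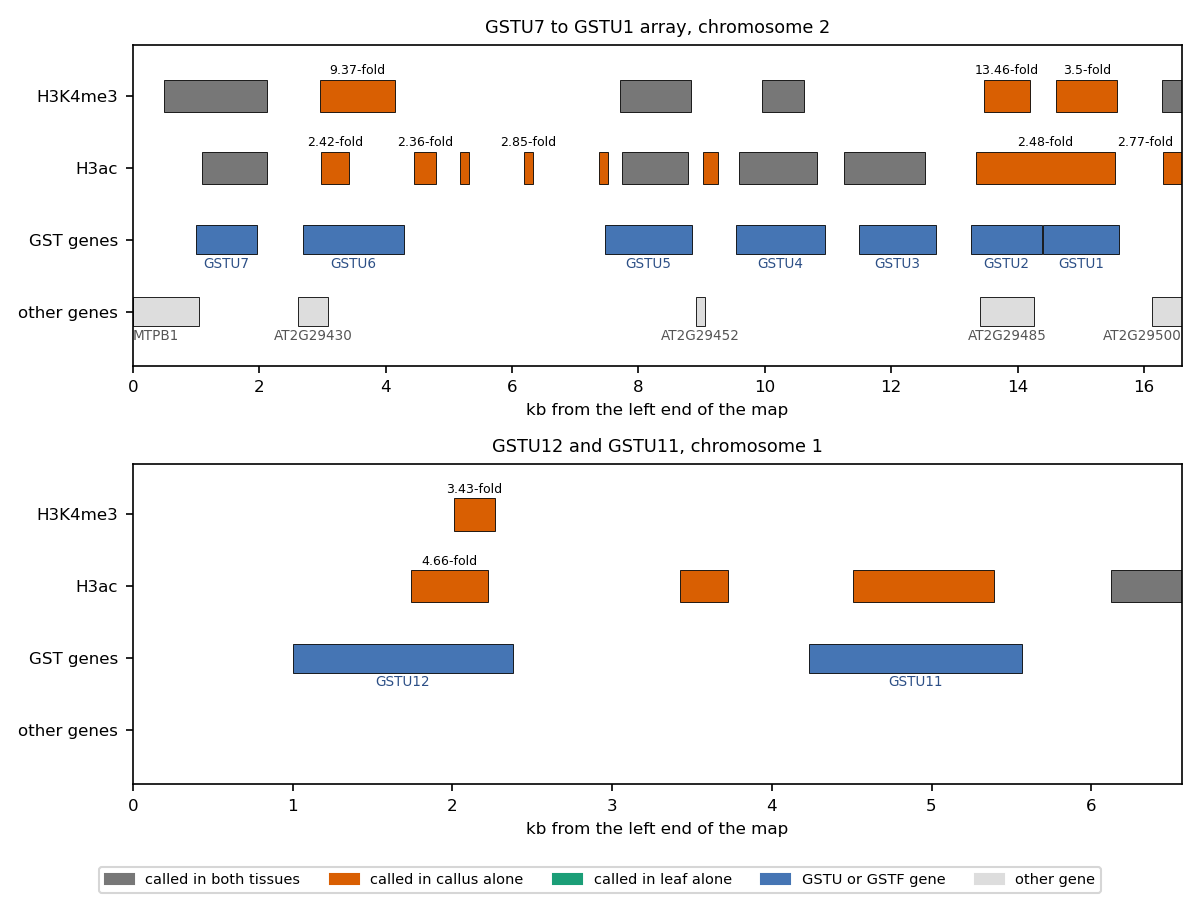
Maps of the GSTU7 to GSTU1 array and of the GSTU12 and GSTU11 pair, drawn to scale in kb from the left end of each map, show H3K4me3 regions, H3ac regions, GST genes (blue) and other genes (light grey) from top to bottom, with region colour for the tissue of the call and the fold above listed regions. GSTU6, GSTU2, GSTU1 and GSTU12 lie under listed regions of both marks, while GSTU7, GSTU5 and GSTU4 lie under regions called in both tissues.

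GSTU12 (AT1G69920) and GSTU11 (AT1G69930) are neighbours on chromosome 1 and had callus-alone regions only. The GSTU12 H3ac region at 26334992 to 26335476 had 37.3 scaled callus and 8.0 leaf tags, 4.66-fold, in the authors' deposited table (2.19 to 11.4), the largest H3ac fold of the family. Its H3K4me3 region at 26335263 to 26335514 had 63.5 scaled callus and 18.5 leaf tags, 3.43-fold, in the authors' deposited table (2.02 to 6.11). The regions of both marks lay in the gene body. The H3K4me3 region, at the 3.7th percentile of scores, was among the weakest of that mark. GSTU11 had an H3ac region of 879 bp that covered 65.8% of its body, called in callus alone but not listed as higher, and no H3K4me3 region within 500 bp. Callus-alone calls and the list differ in this way in general: the authors listed 49.2% of all callus-alone H3ac regions and 72.1% of all callus-alone H3K4me3 regions.

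GSTU8 (AT3G09270) had 3 H3ac regions, all called in callus alone, and no H3K4me3 region within 1217 bp. The region in the body at chromosome 3, 2848270 to 2848420, had 25.2 scaled callus and 11 leaf tags, 2.29-fold, in the authors' deposited table (1.14 to 5.01). The region 229 bp outside it, at 2847439 to 2847954, had 41.3 scaled callus and 19.5 leaf tags, 2.12-fold, in the authors' deposited table (1.25 to 3.74). These were the smallest folds of the family and lie just above the 2-fold limit of the list, and regions below it carry no tag numbers here. Both lower bounds lay close to 1.

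The remaining listed regions lay outside the bodies of their members. GSTU16 (AT1G59700) carried regions of both marks in its body that were called in both tissues and not listed. Its listed H3ac region lay 190 bp away at chromosome 1, 21935901 to 21936088, with 27.8 scaled callus and 11.5 leaf tags, 2.41-fold, in the authors' deposited table (1.22 to 5.15). The GSTF14 (AT1G49860) region lay 261 bp away at chromosome 1, 18460230 to 18461103, over the neighbouring gene AT1G49870, with 97.0 scaled callus and 38.0 leaf tags, 2.55-fold, in the authors' deposited table (1.74 to 3.82). GSTF14 had no region of either mark in its own body. Without these and counting bodies alone, 5 of the 28 members with an H3ac region in the body were listed. For H3K4me3 they were 4 of 26. The share of all genes at this setting was not computed, so nothing is read from these counts.

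Over the 7 listed H3ac regions at members the median fold was 2.41, beside 2.92 over all 1617 listed H3ac regions, from the authors' deposited table. Over the 5 listed H3K4me3 regions it was 3.5, beside 3.32 over all 1359, from the authors' deposited table. Each of the 12 came from a callus-alone call. Over all regions, 49.2% of callus-alone H3ac regions and 72.1% of callus-alone H3K4me3 regions were listed. The listed shares of regions called in both tissues were far smaller for each mark. These are shares of called regions that were listed. The share of all listed regions that came from callus-alone calls, which would match the 12 of 12, was not computed. With no matching share beside it, the 12 of 12 is not read as a trait of the family.

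**Figure D4:**
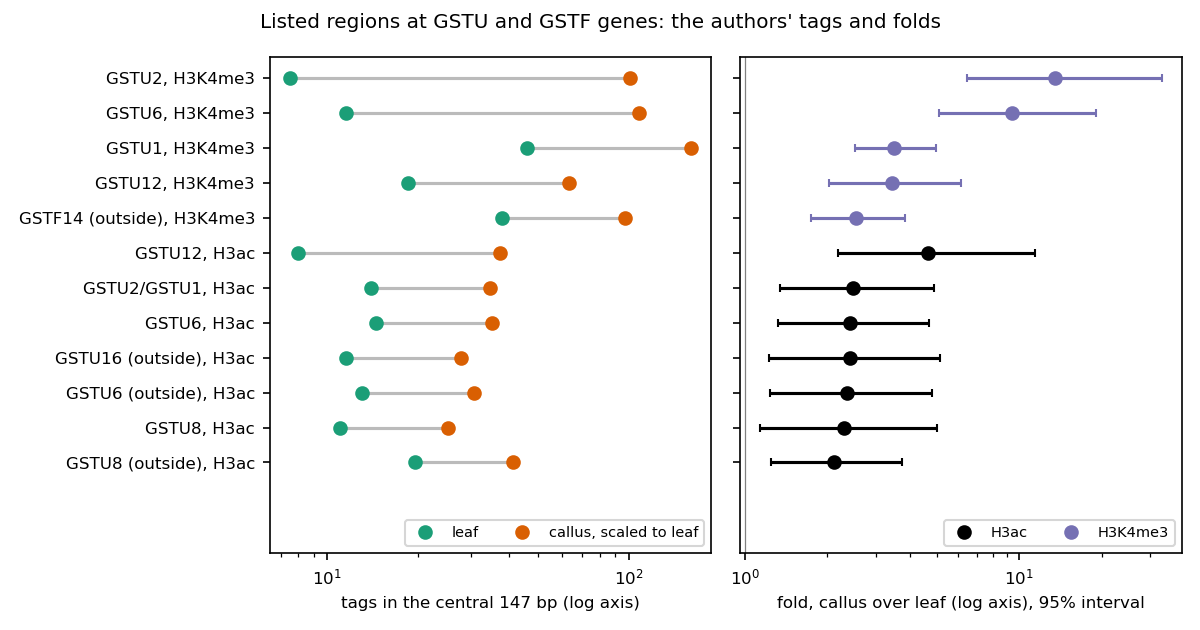
For each listed region at a member the left panel gives leaf tags and scaled callus tags in the counted stretch (log axis), and the right panel gives the fold with its exact 95% interval (log axis, line at 1), from the authors' tag numbers. The H3K4me3 folds run from 2.55 to 13.46 and the H3ac folds from 2.12 to 4.66. Every interval lies above 1, but the regions were listed for a fold of 2 or more in these same tags. That position is therefore no separate result.

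Further callus-alone regions at members were not listed as higher. GSTF3 (AT2G02930) had a callus-alone H3ac region of 235 bp beside an H3K4me3 region called in both tissues, and GSTU15 (AT1G59670) had the reverse, with a callus-alone H3K4me3 region of 192 bp beside an H3ac region called in both. GSTU5 and GSTU27 (AT3G43800) each had a callus-alone H3ac region of 150 bp in the body beside a longer one called in both tissues. A further callus-alone region lay between GSTU5 and GSTU4 and is shared by them. Most of these regions were short and of low score, from the 0.368th percentile in GSTU27 to the 13.8th in GSTF3 for H3ac.

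Leaf-alone calls lay at GSTU17, GSTU18, GSTF2 and the GSTF5 to GSTF7 genes. They were 6 of the 42 H3ac regions at members, beside 8.11% of all H3ac regions, and 2 of the 33 H3K4me3 regions, beside 5.14%. Callus-alone calls were 13 of the 42 for H3ac, beside 14.5% of all, and 6 of the 33 for H3K4me3, beside 7.3%. Leaf-alone calls were thus the fewer at members, as they were over all regions. GSTU17 (AT1G10370), listed under the symbol ERD9 and known as an early dehydration response gene, and GSTU18 (AT1G10360) overlap at their ends. The H3K4me3 regions of this pair, at chromosome 1, 3395970 to 3396978 and 3397259 to 3398192, were both called in leaf alone, the first mostly over GSTU18 (70.1% of its body) and the second over GSTU17 (63.3%). A further H3K4me3 region within 500 bp of GSTU18, called in both tissues, lay over the neighbour AT1G10350. For H3ac, GSTU17 carried leaf-alone regions at 3397266 to 3397640 and 3397929 to 3398411. Another H3ac region, at 3396260 to 3396951, mostly in GSTU18 and touching 4.67% of the GSTU17 body, was called in both tissues. In the GSTU18 body the H3K4me3 region was thus called in leaf alone and the H3ac region in both tissues.

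GSTF2 (AT4G02520), whose protein binds auxin and the defence compound camalexin, had 2 H3ac regions, both called in leaf alone. The first, at chromosome 4, 1110801 to 1111557, covered 44.8% of the body and also lay within TOC159, which is annotated across most of GSTF2. The second, at 1111934 to 1112209, touched 5.91% of the body and reached into AT4G02530. The H3K4me3 region of GSTF2, at 1110406 to 1111643, was called in both tissues and also lay within TOC159. This region and the first H3ac region thus cannot be given to GSTF2 alone. GSTF3 is a near copy of GSTF2, and its H3ac region was called in callus alone where those of GSTF2 were called in leaf alone. How reads that match both copies were placed is not given in the sources used here, and the part of shared reads in this contrast was not tested. The part of reads shared between neighbouring members of the tandem arrays was not tested either.

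On chromosome 1, GSTF7 (AT1G02920), GSTF6 (AT1G02930), GSTF5 (AT1G02940) and GSTF4 (AT1G02950) follow each other. GSTF6, an enzyme of camalexin synthesis, and GSTF7, which is induced by pathogens, each carried an H3ac and an H3K4me3 region in the body called in both tissues. A leaf-alone H3ac region at 662774 to 663430 lay over 35.2% of GSTF5 and within 299 bp of GSTF6, so these neighbours share it, and another at 660264 to 660489 lay 284 bp from GSTF7. GSTF5 had no H3K4me3 region within 500 bp, and GSTF4 had no region of either mark. The leaf-alone calls of this array thus concerned H3ac and no H3K4me3 region. The GSTF7 regions in the body had low scores, at the 16.7th percentile for H3ac and the 10.5th for H3K4me3.

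**Figure D5:**
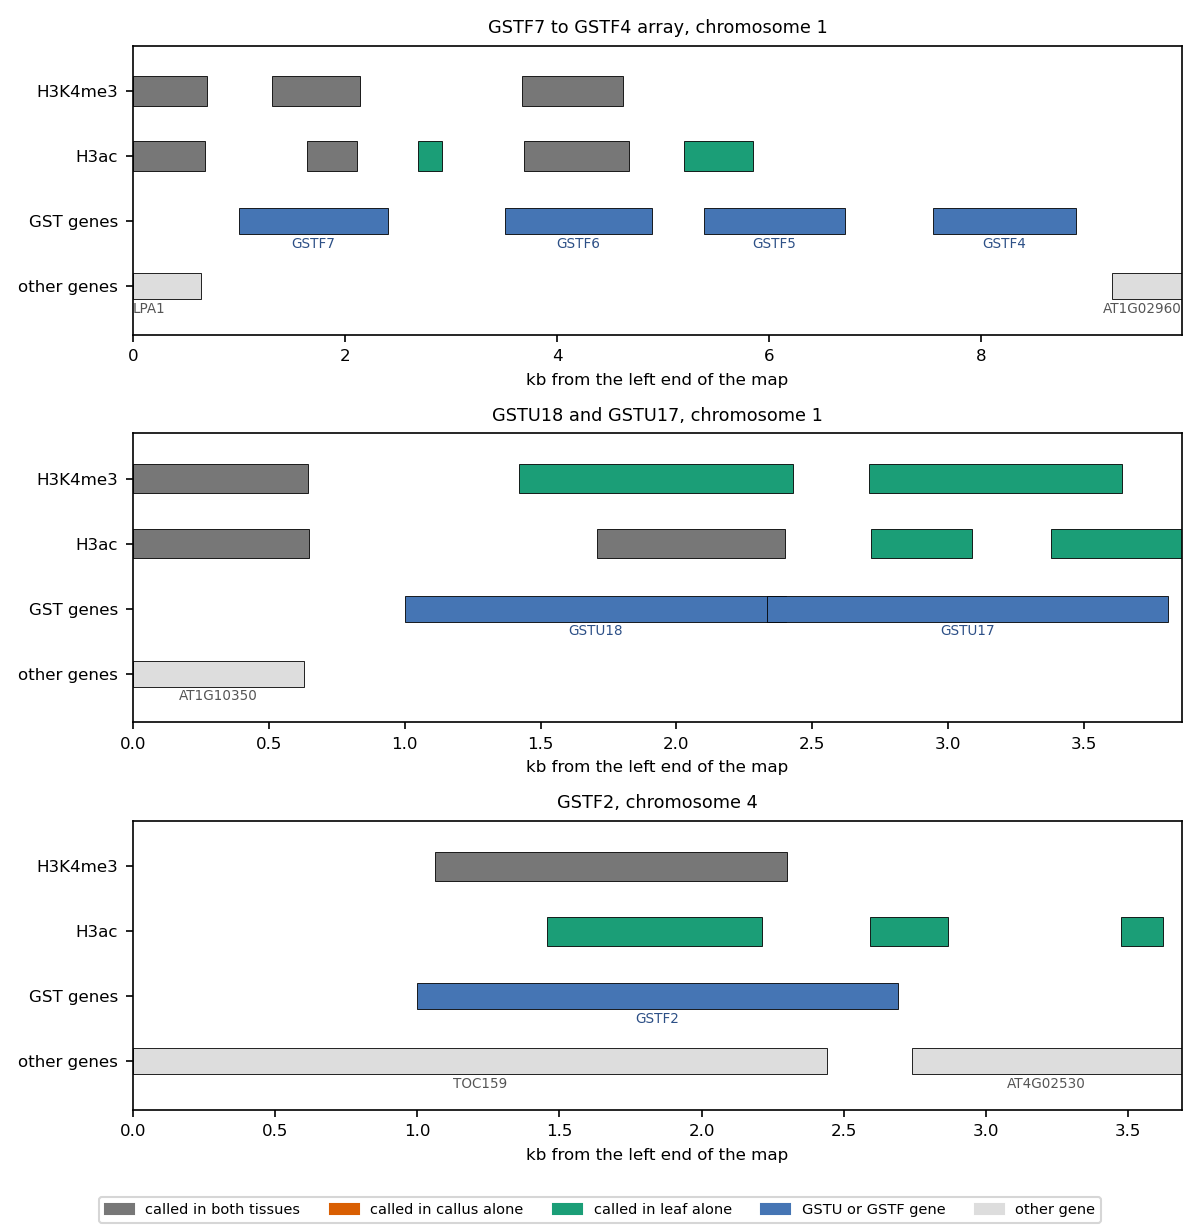
Maps of the GSTF7 to GSTF4 array, the GSTU18 and GSTU17 pair and GSTF2, drawn to scale in kb from the left end of each map, show H3K4me3 regions, H3ac regions, GST genes (blue) and other genes (light grey) from top to bottom, with region colour for the tissue of the call. Leaf-alone regions (green) of both marks lie over GSTU17, while over GSTF2 and GSTF5 they are of H3ac only.

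Members with both marks in the body called in both tissues, and with no listed region, held the highest-scoring region in a member body for each mark, GSTF9 for H3ac and GSTU19 for H3K4me3. By the authors' region score, used here to rank regions within 1 mark, GSTF9 (AT2G30860) stood at the 96.4th percentile for H3ac and the 82.9th for H3K4me3, and its neighbour GSTF10 (AT2G30870), known as the dehydration gene ERD13, at the 84.7th and 82.8th. GSTF8 (AT2G47730), an early marker of stress responses, had H3ac regions at the 93.5th and 85.3rd percentiles and H3K4me3 regions in its body at the 26.6th and 86.9th. The 26.6th-percentile region also lay over AT2G47720. GSTU19 (AT1G78380), which responds to herbicide safeners, was at the 60.7th percentile for H3ac and the 88.1st for H3K4me3.

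Other tau genes of this kind had scores from low to high. GSTU7 stood at the 81.6th percentile for H3ac and the 72.5th for H3K4me3, and GSTU13 (AT1G27130), which acts in indole glucosinolate metabolism, at the 68.4th and 53.7th. GSTU24 (AT1G17170), an enzyme that detoxifies trinitrotoluene, stood at the 52.5th and 24.6th. GSTU4, with the 75.5th percentile for H3ac and the 11.3th for H3K4me3, had the widest gap between marks among these, and GSTU9 (AT5G62480) and GSTU27 lay at or below the 30.8th percentile for both marks. The score does not separate callus from leaf, so an unlisted region may still differ between tissues by less than the limits of the list, or be higher in leaf.

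No region of either mark lay within 500 bp of 11 of the 42 members (26.2%), close to the 25.0% of all genes without one. These were the tau genes GSTU10, GSTU20, GSTU21, GSTU22, GSTU23, GSTU25 and GSTU28 and the phi genes GSTF4, GSTF11, GSTF12 and GSTF13. GSTU20 to GSTU23 are 4 of the 5 genes of an array on chromosome 1 in which GSTU19 alone carried the marks. GSTU20 acts with the jasmonate-conjugating enzyme JAR1 in light signalling, and its nearest regions lay 1513 bp (H3ac) and 1082 bp (H3K4me3) away. GSTU25, a trinitrotoluene-detoxifying enzyme like GSTU24, lies between GSTU24, which had both marks, and GSTU26 (AT1G17190), which had a short H3K4me3 region called in both tissues and no H3ac region. GSTF12, known as TRANSPARENT TESTA 19 for its part in anthocyanin transport, had its nearest regions 1450 bp (H3ac) and 1197 bp (H3K4me3) away. No call says only that no region passed the authors' limits in these libraries.

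Members lay on both sides of the 500 bp limit. Inside it, GSTU14 (AT1G27140) had as its only H3ac region one that lay 124 bp away over AT1G27150, and GSTF14 had the H3K4me3 region at 261 bp. Closer to the limit, GSTU16 had regions called in both tissues at 489 bp (H3K4me3) and 450 bp (H3ac). GSTF10 had one at 440 bp (H3ac), also called in both. GSTU16 and GSTF10 carried regions of both marks in their bodies as well. Outside it, the nearest regions of GSTU22 lay at 595 bp (H3ac) and 584 bp (H3K4me3), and the nearest H3K4me3 regions of GSTF5 and GSTU3 at 763 and 770 bp.

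The marks often lay on the same stretches of the member genes. For H3K4me3 regions the share was close to that over all genes, and for H3ac regions it was lower. Of 28 H3K4me3 regions that touched a member body, 25 (89.3%) overlapped an H3ac region there, with a median of 72.9% of their length shared, beside 89.0% of all H3K4me3 regions in gene bodies that overlapped one. Of 33 such H3ac regions, 26 (78.8%) overlapped an H3K4me3 region, beside 92.8% of all H3ac regions in gene bodies. Regions called in both tissues were long, with a median of 1020 bp for H3ac beside 836 bp over all such regions, and of 1030 bp for H3K4me3 beside 1060 bp. Callus-alone H3ac regions in member bodies were short, with a median of 235 bp beside 234 bp over all callus-alone H3ac regions, and the shared GSTU1 and GSTU2 region of 2213 bp was the longest of them. The leaf-alone H3K4me3 regions over GSTU17 and GSTU18, of 933 and 1008 bp, were longer than the median leaf-alone H3K4me3 region of 455 bp.

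Around the family, 48 other genes of glutathione metabolism were looked at, covering other GST classes, synthesis and recycling of glutathione, glutathione peroxidases, ABCC1 to ABCC5 and the TGA factors, which bind the as-1 promoter element found in front of several GST genes. Regions lay at 44 of the 48 for each mark, and 3 were listed as higher in callus for H3ac (6.82%) and 2 for H3K4me3 (4.55%), beside 7.03% and 8.01% of all genes with a region. The lambda-class gene GSTL1 (AT5G02780) had 87.6 scaled callus and 7.0 leaf tags for H3K4me3, 12.52-fold, in the authors' deposited table (5.83 to 32.0). ABCC4 (AT2G47800), of the ABCC transporter family, had 109.8 scaled callus and 15.5 leaf tags for H3K4me3, 7.08-fold, in the authors' deposited table (4.15 to 12.9). These 2 folds are of the same order as those of GSTU2 and GSTU6. Each is of 1 region, and both genes also had an unlisted H3K4me3 region called in both tissues.

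The 3 genes listed for H3ac had smaller folds. PCS2 (AT1G03980), a phytochelatin synthase gene, had 28.5 scaled callus and 10.5 leaf tags, 2.71-fold, in the authors' deposited table (1.35 to 5.98). The TGA factor gene PAN (AT1G68640) had 36.5 and 12.5, 2.92-fold, in the authors' deposited table (1.55 to 5.94). TGA2 (AT5G06950) had 34.0 and 10.5, 3.23-fold, in the authors' deposited table (1.63 to 7.05). Each of these folds is of 1 region, and PCS2 and TGA2 also had unlisted H3ac regions called in both tissues. None of the 48 had all its regions of a mark called in leaf alone, and no glutathione peroxidase gene was listed for either mark. Neither were GSH1 and GSH2, which encode the enzymes of glutathione synthesis.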

How the data were processed

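Chromatin immunoprecipitation libraries of leaf and callus, 1 per tissue and mark, were analysed from the authors' region tables. Alignment to TAIR10 and the later steps used Bowtie2 2.3.4.3, SAMtools 1.11 and HOMER 4.10.4, per the submitters' processing notes. Settings of region calling and read filtering were not given in the sources used here, and the file headers name no input library. Regions of both tissues were merged with mergePeaks, per the file headers, and each carries a score that the authors deposited. The limits for listing a region as higher in callus were a fold of 2 and, for the Poisson p-value, 0.01, per the file headers. That p-value treats the leaf number as exact and is not printed. The deposited tag signal counts both strands of a short central stretch, in steps of 0.5 for leaf and 0.3652 (H3ac) or 0.4923 (H3K4me3) for scaled callus. The deposited fold is their ratio.

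Python 3.11.15, pandas 2.3.3 and scipy 1.17.1 were used. Intervals are exact conditional (Clopper-Pearson form) 95% intervals with callus tags unscaled and 1 tag taken as 1 read; PCR copies are not independent, so they cover counting error only. Genes came from a RefSeq table of assembly TAIR10.1, which has no strand. Its fit to the files was checked by shifting H3K4me3 region centres by up to 4000 bp: the unshifted position had the highest share in genes in 62 of 62 bins of 2 Mb. A region counted for a gene when it overlapped its body or 500 bp on either side by at least 1 bp. A gene was called in leaf or callus alone when all its regions were. With 1 library per group no test between tissues is possible; an exact comparison of tags, 1 of the alternatives, compares the libraries only. Runs of neighbouring members allow 1 other gene between them. The genes named were members listed or called in leaf alone, members sharing a region, a set of well-known members whatever their values (such as GSTF2, GSTF8, GSTU19 and GSTU20), and listed glutathione genes; the other members named were added after their values were seen. Members and lists were chosen with earlier results of these data known. The interval and overlap steps were tested on simulated data. A planned count of promoter motifs was not run, since no sequence was used here.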

Additional observations from a re-analysis of the deposited data

How the results depend on the processing

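The counts of members were recomputed with gene bodies alone, with 1000 bp on either side, with only the counted central stretch, with each region given to its nearest gene, with only regions at or above the median score, at 4-fold or more, and with an exact test on both tag numbers under Bonferroni adjustment over all merged regions. With only regions at or above the median score, the members listed as higher in callus went from 6 to 2 for H3ac, from 5 to 0 for H3K4me3 and from 4 to 0 for both marks, and the members called in leaf alone went to 0 for each mark. At 4-fold or more, 1 was left for H3ac (GSTU12), 3 for H3K4me3 (GSTU1, GSTU2 and GSTU6) and 0 for both. With the exact test, which sets 1 library against 1 library on regions already listed by fold, 0 were left for H3ac, 0 for both and 5 for H3K4me3. The leaf-alone count for H3ac was 1 with 1000 bp (GSTF2), and that for H3K4me3 was 2 (GSTU17 and GSTU18) with gene bodies alone, with the counted stretch and with the nearest gene. All other settings stayed within 1.5 times the reported count. The counts with gene bodies alone, 1000 bp, the counted stretch and the nearest gene have no share of all genes beside them. H3ac tags were few, which limits its folds more than those of H3K4me3. No paired analysis was possible because each group has 1 library.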

Other observations

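In the gap between GSTU6 and GSTU5, beyond 500 bp of either gene, lay 2 further H3ac regions called in callus alone. One of them, at chromosome 2, 12623124 to 12623274 (TAIR10) and 1129 bp from GSTU5, had 28.5 scaled callus and 10.0 leaf tags, 2.85-fold, in the authors' deposited table (1.4 to 6.4). A callus-alone H3ac region also lay between GSTU12 and GSTU11, 508 bp from GSTU11. At the GSTU1 end of the array the next gene, AT2G29500, was listed as higher in callus for H3ac, at 2.77-fold in the authors' deposited table, and not for H3K4me3, whereas MTPB1 at the GSTU7 end was listed for neither mark. The callus-alone regions named here belong to no member and enter no count above. The only region of each mark within 500 bp of MTPB1 is the GSTU7 region, which was counted above. MTPB1 is therefore no separate comparison with AT2G29500.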
